A study of Homo sapiens with 12 samples.

Results

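The hepatocyte lineage transcription factors HNF4A, HNF4G, FOXA1, FOXA2, FOXA3, ONECUT1, ONECUT2 and CEBPA were followed in RNA sequencing of human hepatocellular carcinoma cells after knockdown of the circular RNA circASH2. These 8 genes, of families that specify and maintain hepatocytes, were chosen by name with earlier results of these data known. All 8 are among the 23583 features of the count table. All 8 also passed the filter on low counts, which left 16946 features in the test. With si-circASH2, 6 of the 8 fell in Huh7 cells, the largest of these falls being that of ONECUT1. In HCCLM3 cells FOXA1 fell and ONECUT1, barely detected there, rose. Of all tested features 31.4% passed the same test in Huh7, with 15.1% lower, and 30.6% passed it in HCCLM3. The calls of ONECUT1 in HCCLM3 and of CEBPA in Huh7 were lost in 10 and 9 of 23 alternative analyses.

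The 4 groups were HCCLM3 cells with si-circASH2, HCCLM3 cells with si-NC, Huh7 cells with si-circASH2 and Huh7 cells with si-NC, where si-circASH2 is the small interfering RNA against the circle and si-NC is the negative control. Each group held 3 libraries, 12 in all, with total counts between 29006781 and 30858895. HCCLM3 is a highly metastatic line, Huh7 is a line known for keeping hepatocyte functions, and per the series text the question was how silencing of the circle acts on metastasis. The labels do not state whether replicate libraries were grown separately, so the spread behind the p-values may be technical. Each line is 1 model of 1 tumour, every library received an siRNA, and no label gives an untreated group, the dose or the time after transfection.

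Hepatocyte identity rests on a network of transcription factors that bind the regulatory regions of liver genes together and of one another's genes. FOXA proteins are pioneer factors that open compacted chromatin in the foregut endoderm, ONECUT proteins act in the bipotent progenitors of hepatocytes and bile duct cells, and HNF4A, a nuclear receptor, is required for the epithelial and metabolic character of mature hepatocytes. CEBPA joins this network in differentiated liver cells, where it limits proliferation and drives genes of gluconeogenesis and urea synthesis. In liver carcinoma these factors are widely used as a measure of how far a tumour has kept the hepatocyte programme.

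The labelled cell type was checked against 15 hepatocyte markers. Their summed level was between 134.8 and 136.8 CPM (counts relative to the library total, with TMM factors) in HCCLM3 with si-circASH2 and between 89.31 and 98.24 CPM in HCCLM3 with si-NC, against 30330 to 31010 CPM in Huh7 with si-circASH2 and 33140 to 33460 CPM in Huh7 with si-NC. Albumin (ALB) averaged 3.24 CPM in HCCLM3 si-NC libraries and 9866 CPM in Huh7 si-NC libraries. Not all secreted products were so low in HCCLM3 si-NC libraries, where the plasma glycoprotein APOH averaged 45.99 CPM, against 76.7 CPM in Huh7 si-NC libraries, and the retinol carrier RBP4 averaged 30.4 CPM, against 714 CPM in Huh7 si-NC libraries. Markers of other cell types were also summed. The 12 leukocyte markers gave 177.4 to 213.5 CPM with si-circASH2 and 151.5 to 172.8 CPM with si-NC in HCCLM3, and 354.8 to 380.3 CPM with si-circASH2 and 396.6 to 430.7 CPM with si-NC in Huh7, with CD3E and MS4A1 at 0 in every library. For the 12 fibroblast markers the sums were 49.56 to 54.03 CPM with si-circASH2 and 36.05 to 38.62 CPM with si-NC in HCCLM3, and 59.88 to 61.17 CPM with si-circASH2 and 37.92 to 43.45 CPM with si-NC in Huh7, with FAP and POSTN at 0 in every library. The 12 endothelial markers gave 89.93 to 94.78 CPM with si-circASH2 and 110.7 to 117.8 CPM with si-NC in HCCLM3. In Huh7 they gave 48.48 to 51.21 CPM with si-circASH2 and 52.73 to 53.52 CPM with si-NC. TIE1 and ERG were at 0 in every library. Most of each of these sums came from few genes. In HCCLM3 with si-NC these were CD68 (153.6 CPM), LUM (34.3 CPM) and ESAM (84.3 CPM). In Huh7 with si-NC they were LYZ (375.3 CPM), COL1A2 (24.45 CPM), PECAM1 (25.96 CPM) and EGFL7 (25.26 CPM). The same genes led with si-circASH2. Of the markers tested with si-circASH2 against si-NC, 1 of 7 fibroblast markers rose in HCCLM3 and 4 of 7 in Huh7, 4 of 6 endothelial markers fell in HCCLM3 and 2 of 6 rose in Huh7, and 1 of 6 leukocyte markers rose in HCCLM3 while 2 rose and 1 fell in Huh7. Of 14 tested hepatocyte markers 4 rose and 1 fell in HCCLM3, and 2 rose and 3 fell in Huh7. Over all tested features 30.6% were called in HCCLM3 and 31.4% in Huh7. The part of these markers in the changes described below was not tested, and in bulk RNA fewer cells that express a gene cannot be told apart from less RNA per cell.

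The circle itself matched no feature of the tables, so its own level is not given. ASH2L, the host gene, averaged 27.5 CPM with si-circASH2 and 32.4 CPM with si-NC in HCCLM3 (edgeR quasi-likelihood adjusted p = 0.0014), and 66.99 CPM with si-circASH2 and 76.5 CPM with si-NC in Huh7 (edgeR adjusted p = 0.00304).

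In GENCODE 29 (GRCh38) the FOXA genes lie on chromosome 14 (FOXA1, 37589984 to 37596059, minus strand), chromosome 20 (FOXA2, 22581005 to 22585455, minus strand) and chromosome 19 (FOXA3, 45863989 to 45873797, plus strand). The ONECUT genes lie on chromosome 15 (ONECUT1, 52756989 to 52791078, minus strand) and chromosome 18 (ONECUT2, 57435685 to 57491297, plus strand). HNF4A is on chromosome 20 (44355700 to 44434596, plus strand), HNF4G on chromosome 8 (75407914 to 75566843, plus strand) and CEBPA on chromosome 19 (33299934 to 33302564, minus strand).

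Among the 8 factors, levels were compared per transcript length with the deposited FPKM, which scales fragments to transcript length and library size. CEBPA stood highest and HNF4A next in all 4 groups, followed by FOXA2. The order of CEBPA and HNF4A rests on the length scaling. By CPM HNF4A and CEBPA averaged 91.4 and 69.7 with si-circASH2 and 94.9 and 72.8 with si-NC in HCCLM3. In Huh7 these averages were 192.2 and 193.6 CPM with si-circASH2 and 241.6 and 223.6 CPM with si-NC. In HCCLM3 si-NC libraries CEBPA averaged 24.5 ± 0.921 FPKM, HNF4A 19.2 ± 1.82 FPKM and FOXA2 18.0 ± 1.01 FPKM (SD, n = 3), and the libraries of HNF4A and FOXA2 overlapped. Below them HNF4G at 5.90 ± 0.982 FPKM and FOXA1 at 5.84 ± 0.423 FPKM overlapped as well, ahead of FOXA3 at 2.75 ± 0.209 FPKM, ONECUT2 at 0.708 ± 0.0611 FPKM and ONECUT1 at 0.103 ± 0.0137 FPKM. The order in Huh7 si-NC libraries placed CEBPA at 75.2 ± 3.01 FPKM, HNF4A at 46.8 ± 4.90 FPKM, FOXA2 at 26.9 ± 1.98 FPKM, FOXA1 at 22.2 ± 0.391 FPKM and FOXA3 at 16.4 ± 0.83 FPKM, with no overlap between neighbours. ONECUT1 followed at 5.04 ± 0.287 FPKM and ONECUT2 at 4.08 ± 0.257 FPKM, which did not overlap, and HNF4G came last at 3.56 ± 0.617 FPKM, overlapping ONECUT2.

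With si-circASH2 the order in HCCLM3 was the same as with si-NC, while in Huh7 the lower end changed. There HNF4G averaged 3.05 ± 0.28 FPKM and ONECUT2 2.79 ± 0.212 FPKM, which overlapped, and ONECUT1 came last at 1.89 ± 0.24 FPKM with no overlap with ONECUT2. FOXA2 at 21.8 ± 2.01 FPKM and FOXA1 at 19.7 ± 0.218 FPKM overlapped in this group, which they did not with si-NC. The order with si-circASH2 otherwise matched that with si-NC in Huh7.

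The knockdown was then compared within each line. In HCCLM3 1 of the 8 factors rose (ONECUT1), 1 fell (FOXA1) and 6 did not pass the test, against 30.6% of all tested features called in either direction. In Huh7 none rose, 6 fell (HNF4A, FOXA1, FOXA2, ONECUT1, ONECUT2 and CEBPA) and 2 did not pass (HNF4G and FOXA3), against 31.4% of tested features called in either direction and 15.1% called lower. The median log2 fold change of the 8 was -0.05 in HCCLM3 and -0.25 in Huh7, where the medians over all tested features were 0 and 0.01. In HCCLM3 2 factors had si-circASH2 and si-NC libraries that did not overlap (FOXA1 and ONECUT1; 43.7% of tested features), and in Huh7 5 had none (HNF4A, FOXA1, FOXA2, ONECUT1 and ONECUT2; 42.7% of tested features). Calls are from the edgeR quasi-likelihood test with a Benjamini-Hochberg adjusted p under 0.05 over all tested features. An exact two-sided permutation test of 3 against 3 libraries cannot give a p below 0.1.

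**Figure D1:**
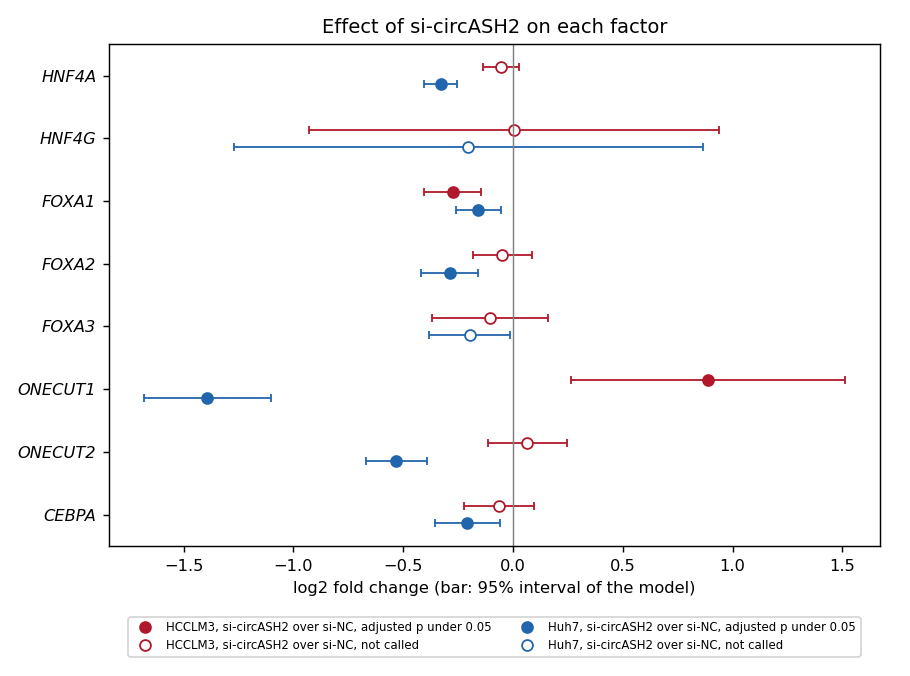
Log2 fold change of each factor with si-circASH2 over si-NC (horizontal axis) in HCCLM3 (red) and Huh7 (blue), with the 95% interval of the model; filled points passed an adjusted p of 0.05. ONECUT1 lies at 0.89 in HCCLM3 and at -1.39 in Huh7, and HNF4G has the widest intervals.

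FOXA1, FOXA2 and FOXA3 are paralogous winged-helix pioneer factors that occupy liver enhancers before other factors bind. FOXA1 was the only one of the 8 to fall in both lines. It had 15.6, 14.5 and 16.7 CPM with si-circASH2 in HCCLM3, against 20.1, 18.2 and 18.2 CPM with si-NC, and 65.2, 64.3 and 63.9 CPM with si-circASH2 in Huh7, against 72.7, 71.3 and 71.8 CPM with si-NC. In each line all si-circASH2 libraries lay below all si-NC libraries. The log2 fold change was -0.28 ± 0.06 in HCCLM3 (standard error; edgeR adjusted p = 0.00148) and -0.16 ± 0.05 in Huh7 (edgeR adjusted p = 0.0182), and the effects did not differ past the test (difference -0.12, 95% interval -0.28 to 0.05, edgeR adjusted p = 0.34). The Huh7 call was lost in 4 of 23 alternatives, without Huh7 si-NC replicate 1, without Huh7 si-circASH2 replicate 3 and in both limma fits on log2(FPKM + 0.1) (adjusted p up to 0.0744). The HCCLM3 call was lost without si-NC replicate 1 and si-circASH2 replicate 2 together (log2 fold change -0.17, edgeR adjusted p = 0.0964), a pair whose HNF4G counts are described below.

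FOXA1 overlaps TTC6, a protein-coding gene of the opposite strand that is also in the table. Unscaled levels of TTC6 were 0.7495 to 0.9947 CPM with si-circASH2 and 0.3447 to 0.8804 CPM with si-NC in HCCLM3, and 4.395 to 5.145 CPM with si-circASH2 and 5.449 to 5.756 CPM with si-NC in Huh7. Whether reads were counted by strand is not given in the sources used here, so reads of the shared stretch cannot be told apart.

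FOXA2, which in mouse liver also takes part in the fasting response and bile acid handling, fell in Huh7. Its libraries there had 63.3, 53.7 and 64.0 CPM with si-circASH2, against 67.2, 76.0 and 77.8 CPM with si-NC, and did not overlap. The log2 change of -0.29 ± 0.06 passed (edgeR adjusted p = 0.00112). In HCCLM3 the levels were 48.1, 47.5 and 47.1 CPM with si-circASH2, against 51.2, 50.02 and 46.4 CPM with si-NC. These groups overlapped, at a log2 fold change of -0.05 (95% interval -0.18 to 0.09, edgeR adjusted p = 0.649). The difference between the lines, HCCLM3 minus Huh7, was 0.24 (95% interval 0.05 to 0.43) and missed the threshold with an edgeR adjusted p of 0.0641. It passed without Huh7 si-NC replicate 1 (0.0151) or without Huh7 si-circASH2 replicate 3 (0.0373).

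FOXA3, the paralog that is most abundant in adult rodent liver, passed the test in neither line. HCCLM3 libraries had 5.12, 5.24 and 6.88 CPM with si-circASH2, against 6.09, 5.81 and 6.64 CPM with si-NC. In Huh7 the levels were 36.9, 29.1 and 29.5 CPM with si-circASH2, against 36.2, 35.1 and 38.1 CPM with si-NC, where si-circASH2 replicate 1 lay among the si-NC libraries and the other two below them. The log2 fold changes were -0.11 (95% interval -0.37 to 0.16, edgeR adjusted p = 0.597) in HCCLM3 and -0.20 (95% interval -0.38 to -0.01, edgeR adjusted p = 0.099) in Huh7. The Huh7 value passed in 2 of 23 alternatives, at -0.32 without Huh7 si-circASH2 replicate 1 (edgeR adjusted p = 0.00778) and at -0.21 with only the Huh7 libraries in the fit (edgeR adjusted p = 0.0467).

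ONECUT1 (HNF6) and ONECUT2 are cut-homeodomain factors of the early liver bud that bind the same core sequence. In Huh7 both fell, and for both the effect differed between the lines. ONECUT1 had 4.30, 5.14 and 4.14 CPM with si-circASH2 in Huh7, against 11.02, 12.4 and 12.2 CPM with si-NC. The highest si-circASH2 library was well below the lowest si-NC library. Its log2 fold change, -1.39 ± 0.14 with an edgeR adjusted p of 4.3e-08, was past 2-fold, a size that 1.92% of tested features reached with a call in Huh7.

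In HCCLM3 ONECUT1 was barely detected, with 14, 13 and 18 counts with si-circASH2 (0.475, 0.431 and 0.604 CPM) and 8, 9 and 7 counts with si-NC (0.269, 0.315 and 0.229 CPM). The groups did not overlap, si-circASH2 being the higher. The log2 fold change was 0.89 ± 0.30 (edgeR adjusted p = 0.04). None of the 8 was called past 2-fold in HCCLM3, as 2.17% of tested features were. The ONECUT1 call was lost in 10 of 23 alternatives, with adjusted p between 0.00349 and 0.17 over all of them and a log2 change of 0.14 on the log2(FPKM + 1) scale. Those 10 included leaving out any 1 of the 3 si-NC libraries or si-circASH2 replicate 1 or 3 of HCCLM3. HCCLM3 minus Huh7, the effects differed by 2.28 ± 0.33 in log2 units (edgeR adjusted p = 1.84e-05), past 2-fold (2.37% of tested features), and this difference passed in every alternative run, between 1.21 and 2.40.

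ONECUT2 had 48.9, 50.9 and 54.7 CPM with si-circASH2 in Huh7, against 78.1, 76.1 and 68.9 CPM with si-NC, groups that did not overlap. Its log2 fold change was -0.53 ± 0.07 (edgeR adjusted p = 1.5e-06). HCCLM3 libraries had 14.2, 14.5 and 11.6 CPM with si-circASH2, against 13.8, 12.01 and 12.8 CPM with si-NC, and overlapped. Their log2 fold change was 0.06 (95% interval -0.12 to 0.24, edgeR adjusted p = 0.647). The difference between the lines was 0.60 ± 0.11 (edgeR adjusted p = 0.000326).

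HNF4A, the nuclear receptor that occupies many active liver promoters, fell in Huh7. Its libraries had 195, 184 and 197 CPM with si-circASH2 in Huh7, against 247, 241 and 237 CPM with si-NC, with a clear gap between the groups. The log2 fold change was -0.33 ± 0.04 (edgeR adjusted p = 2.77e-07). In HCCLM3 the levels were 90.2, 90.3 and 93.8 CPM with si-circASH2, against 94.7, 92.4 and 97.6 CPM with si-NC. These overlapped, with a log2 fold change of -0.05 (95% interval -0.14 to 0.03, edgeR adjusted p = 0.33). The effects differed by 0.28 ± 0.05 (HCCLM3 minus Huh7, edgeR adjusted p = 0.000594). On the FPKM scale the difference was 0.38 to 0.39 but did not pass the limma test (adjusted p between 0.0823 and 0.16).

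Over all tested features 20.9% had effects that differed between the lines, 9.6% with the larger value in HCCLM3. Among the 8 factors 3 did so (HNF4A, ONECUT1 and ONECUT2), all with the larger value in HCCLM3, and the median difference of the 8 was 0.22 against -0.02 over all features.

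HNF4A has a P2 promoter, used in fetal liver and pancreas, upstream of the P1 promoter of adult liver, and ONECUT1 is known to act on HNF4A transcription. The 250 bases before the start of each, and those before the start of ONECUT1, are printed from RefSeq (GRCh38.p14). They were chosen after both genes were seen to fall in Huh7, where ONECUT2 fell too. In HCCLM3 ONECUT1 rose and HNF4A did not pass the test. An action of ONECUT1 on HNF4A was not tested. Windows from 250 bases before to 50 after a start were searched on both strands for the ONECUT core ATCAAT (reverse ATTGAT), forkhead TGTTTAC, the HNF1 consensus, CEBP TTGCGCAA, HNF4 CAAAGTCCA, the GATA-factor letters AGATAA, and the TATA box letters TATAAA. Capitals mark matches.
HNF4A P2 (chr20:44355449-44355698, plus strand): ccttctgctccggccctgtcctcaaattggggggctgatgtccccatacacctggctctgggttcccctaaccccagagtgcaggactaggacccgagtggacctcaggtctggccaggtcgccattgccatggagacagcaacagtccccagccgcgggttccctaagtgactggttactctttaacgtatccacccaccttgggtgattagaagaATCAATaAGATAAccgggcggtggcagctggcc
HNF4A P1 (chr20:44400989-44401238, plus strand): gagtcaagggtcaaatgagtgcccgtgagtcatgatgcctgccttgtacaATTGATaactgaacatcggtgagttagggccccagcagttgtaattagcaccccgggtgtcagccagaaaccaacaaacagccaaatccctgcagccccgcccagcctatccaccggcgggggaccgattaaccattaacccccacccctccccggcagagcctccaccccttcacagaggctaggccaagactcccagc
ONECUT1 (chr15:52790337-52790586, minus strand): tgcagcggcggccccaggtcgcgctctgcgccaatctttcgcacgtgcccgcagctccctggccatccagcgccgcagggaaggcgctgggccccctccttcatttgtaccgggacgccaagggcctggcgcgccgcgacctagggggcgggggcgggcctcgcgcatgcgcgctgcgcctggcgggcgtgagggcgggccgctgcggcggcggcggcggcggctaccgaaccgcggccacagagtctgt
The P2 window holds the ONECUT core at -33, counted from the start site, with the GATA letters next to it at -26, and the P1 window holds the ONECUT core in reverse at -200. ONECUT core letters are in 6.26% and the GATA letters in 10.3% of 35116 RefSeq windows of the same length. No searched motif was found in the windows of ONECUT1, ONECUT2 or FOXA1, and CEBPA and FOXA3 each hold TATAAA at -30, which 11.5% of windows hold. Forkhead, HNF1, CEBP and HNF4 letters, in 3.42%, 0.322%, 0.151% and 0.384% of windows, were in none of the 7 windows of the 6 factors searched. FOXA2 had no entry, and HNF4G was left out of this search. A match is a description of the letters only, and the counts do not separate transcripts of P1 from those of P2.

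The 3′ untranslated regions (longest per gene, GENCODE 29) were searched for TTATACC and TATACCA, sequences that an earlier analysis of these data had linked to genes lowered in both lines. FOXA1, FOXA2 and ONECUT2 hold 1 match each, printed with the match in capitals and the flanking bases of the transcript strand.
FOXA1 (chr14:37590433-37590439, minus strand): ttctatgagtgTATACCAtttaaagaattt
FOXA2 (chr20:22581192-22581198, minus strand): atattaaagtgTTATACCcggttttatccc
ONECUT2 (chr18:57477239-57477246, plus strand): gcttagcctcaTTATACCAtgttatgtcca
Of 13994 genes searched, 13.3% hold at least 1 of these sequences. The searched region of ONECUT2 is 14574 bases long, against 1381 bases for FOXA1 and 845 for FOXA2. ONECUT1 holds neither sequence in its 566 bases, nor do HNF4A, HNF4G, FOXA3 and CEBPA. The sequences came from these same libraries, in which FOXA1 fell in both lines, so a match describes the letters only. Any role of the matches was not tested. TCGGAGAA, which the same analysis had linked to genes raised in both lines, is in none of the 8 and in 0.607% of the genes searched.

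HNF4G, a paralog of HNF4A best known from intestine and kidney, passed the test in neither line, and in HCCLM3 its count and its FPKM disagreed. HCCLM3 libraries had 301, 701 and 299 counts with si-circASH2 and 666, 313 and 307 counts with si-NC. One library of each group, si-circASH2 replicate 2 and si-NC replicate 1, stood far above the rest. The deposited FPKM of the same libraries were 5.30, 5.68 and 5.16 with si-circASH2 and 7.02, 5.52 and 5.17 with si-NC, where only si-NC replicate 1 was set apart.

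The ratio of unscaled CPM to FPKM, given in kb, rises with the length that the authors' FPKM used for a gene. It also depends on the library totals used for each scale, so it is not itself a length. The ratio had a median of 2.97 kb for CEBPA, whose 1 GENCODE 29 transcript has 2631 bases. It was between 1.93 and 2.04 kb for HNF4G in 10 libraries, but 4.08 kb in HCCLM3 si-circASH2 replicate 2 and 3.19 kb in HCCLM3 si-NC replicate 1. The highest ratio was 2.12 times the lowest, where the median over 12345 features with at least 1 CPM on average and 10 counts in every library was 1.08 and 1.85% exceeded 2. GENCODE 29 lists 4 HNF4G transcripts of 410 to 4209 bases. For HNF4A the ratio ran from 4.31 to 6.31 kb, a span of 1.46. ONECUT1 had a span of 1.22, and the other members had spans between 1.06 and 1.07. Why the ratio of HNF4G changed in these libraries was not tested.

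**Figure D2:**
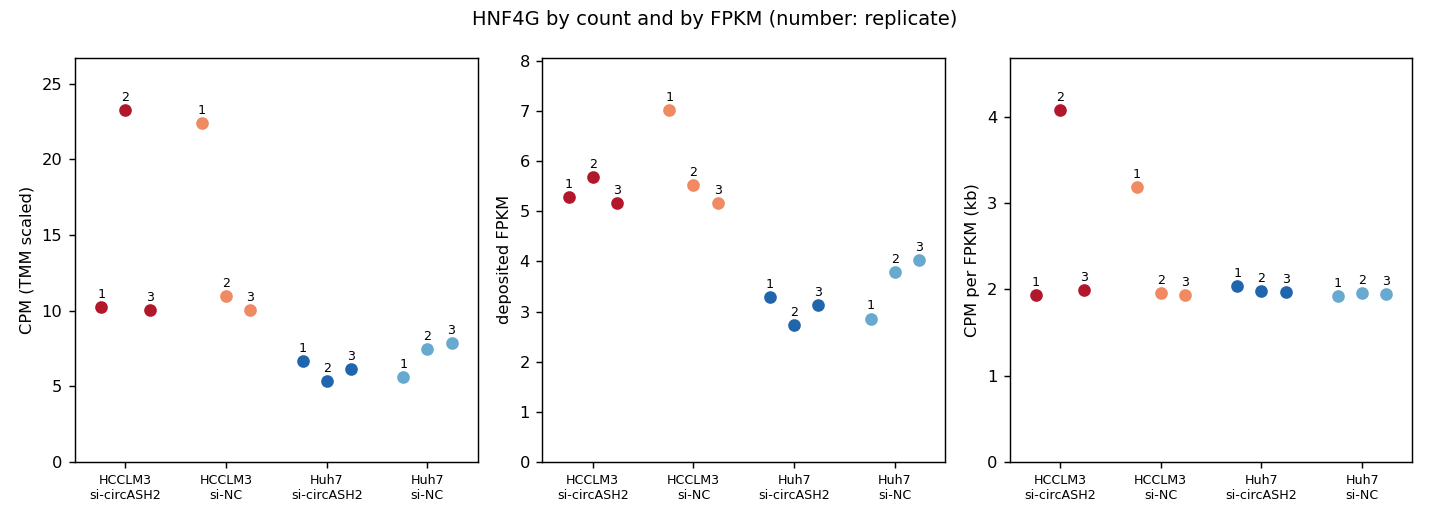
HNF4G in each library (points, numbered by replicate) as TMM-scaled CPM, as deposited FPKM and as the ratio of unscaled CPM to FPKM in kb. HCCLM3 si-circASH2 replicate 2 and si-NC replicate 1 stand apart by CPM and by this ratio (4.08 and 3.19 kb), and less so by FPKM.

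By count, HNF4G gave a log2 fold change of 0.00 (95% interval -0.93 to 0.94, edgeR adjusted p = 1) in HCCLM3, and without both of these libraries it was -0.04 (edgeR adjusted p = 0.919). In Huh7 the libraries had 6.67, 5.37 and 6.11 CPM with si-circASH2, against 5.58, 7.48 and 7.84 CPM with si-NC. They overlapped, with a log2 fold change of -0.20 (95% interval -1.27 to 0.87, edgeR adjusted p = 0.813). These intervals rest on a spread estimated over all 12 libraries, including both HCCLM3 libraries that stood apart. Fitted on the Huh7 libraries alone the Huh7 value was -0.22 (edgeR adjusted p = 0.231).

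CEBPA, the basic leucine zipper factor of differentiated hepatocytes and an intronless gene, had 217, 176 and 187 CPM with si-circASH2 in Huh7, against 218, 236 and 216 CPM with si-NC. Replicate 1 with si-circASH2 lay among the si-NC libraries and the other two lay below them. The log2 fold change was -0.21 ± 0.07 (edgeR adjusted p = 0.0354), but the call was lost in 9 of 23 alternatives, with adjusted p between 0.000266 and 0.114. Those 9 included leaving out Huh7 si-NC replicate 1 or 2, Huh7 si-circASH2 replicate 2 or 3, and HCCLM3 si-NC replicate 1 or 3. HCCLM3 libraries had 65.9, 67.1 and 76.0 CPM with si-circASH2, against 73.3, 70.9 and 74.0 CPM with si-NC, and overlapped. Their log2 fold change was -0.06 (95% interval -0.22 to 0.10, edgeR adjusted p = 0.596). The difference between the lines was 0.14 (95% interval -0.07 to 0.36, edgeR adjusted p = 0.371), and it passed without Huh7 si-circASH2 replicate 1 (0.23, edgeR adjusted p = 0.0303).

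**Figure D3:**
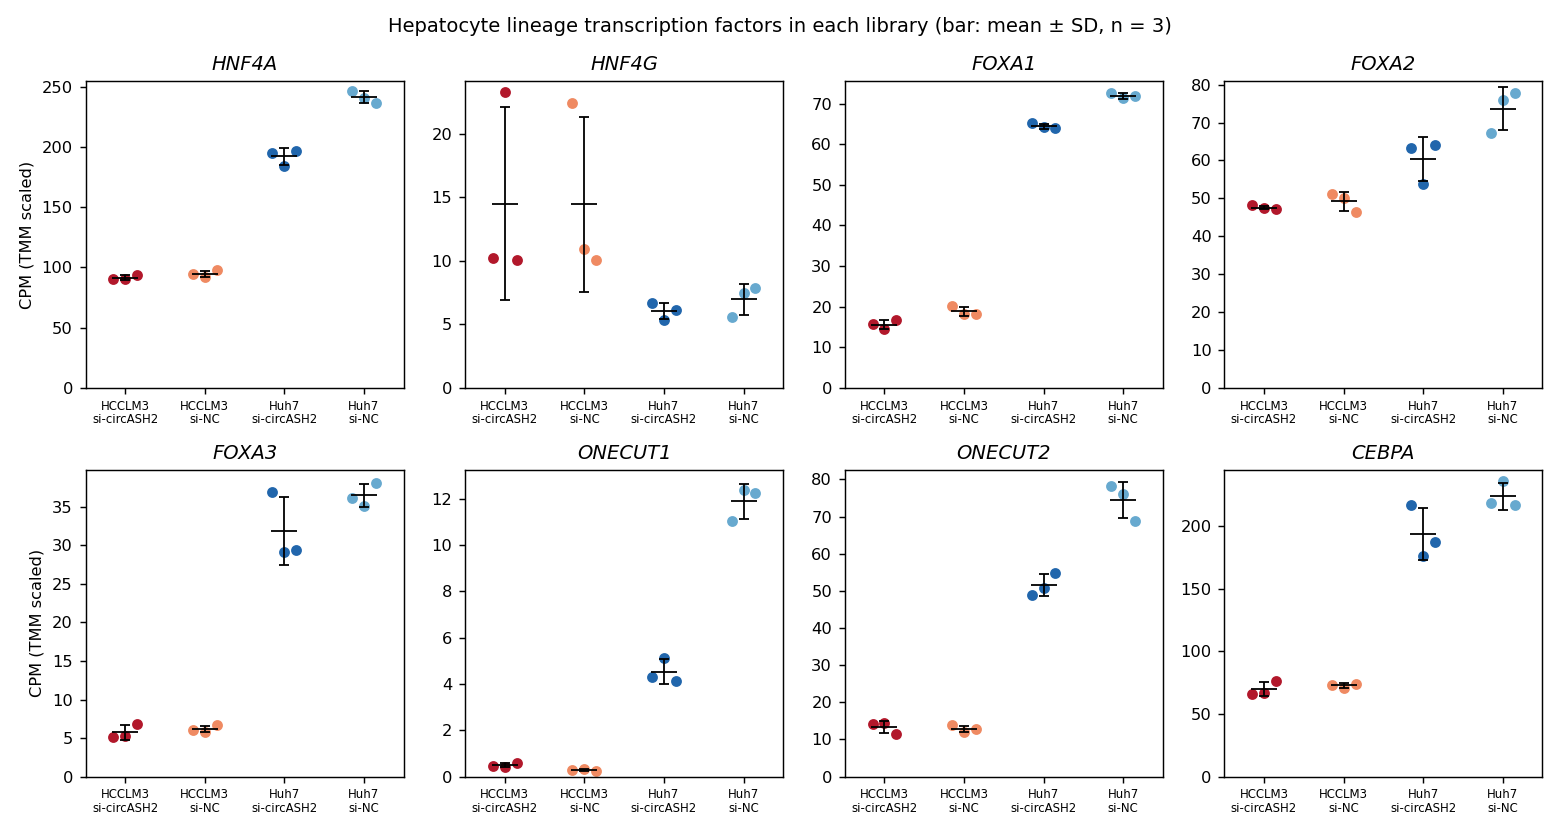
TMM-scaled CPM of each factor (vertical axes, each from 0) in every library of the 4 groups, with the mean and SD of 3 libraries. In Huh7 the si-circASH2 libraries of HNF4A, FOXA1, FOXA2, ONECUT1 and ONECUT2 lie below all si-NC libraries, and in HCCLM3 7 of the 8 factors lie below the Huh7 libraries in both treatments.

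Within each family the mix of paralogs was taken as a share of the summed FPKM. ONECUT1 made up 36.8% to 43.8% of ONECUT FPKM with si-circASH2 in Huh7, against 52.2% to 58.0% with si-NC. By FPKM ONECUT2 was thus the higher in each si-circASH2 library and ONECUT1 in each si-NC library. This order rests on the length scaling, with CPM per FPKM of 17.88 to 18.91 kb for ONECUT2 and 2.175 to 2.646 kb for ONECUT1. By count ONECUT2 was the higher in every Huh7 library, with 2102 to 2382 counts against 336 to 373 with si-NC. In HCCLM3 the ONECUT1 share was 18.1% to 28.7% with si-circASH2 and 11.3% to 15.3% with si-NC, of a family sum of 0.896 to 1.01 FPKM with si-circASH2 and 0.766 to 0.872 FPKM with si-NC. The family sum in Huh7 was 4.34 to 4.95 FPKM with si-circASH2 and 9.03 to 9.31 FPKM with si-NC.

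FOXA2 had the largest mean share of the FOXA family in every group, and a larger one in HCCLM3 than in Huh7. It held 67.8% to 71.9% of FOXA FPKM with si-circASH2 in HCCLM3 and 37.4% to 41.6% in Huh7, and 66.4% to 69.0% with si-NC in HCCLM3 and 38.8% to 42.4% in Huh7. HNF4G held 20.5% to 23.3% of HNF4 FPKM with si-circASH2 in HCCLM3 and 6.998% to 9.57% in Huh7, and 21.2% to 24.98% with si-NC in HCCLM3 and 6.10% to 7.93% in Huh7. No library of 1 line overlapped those of the other in these shares.

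**Figure D4:**
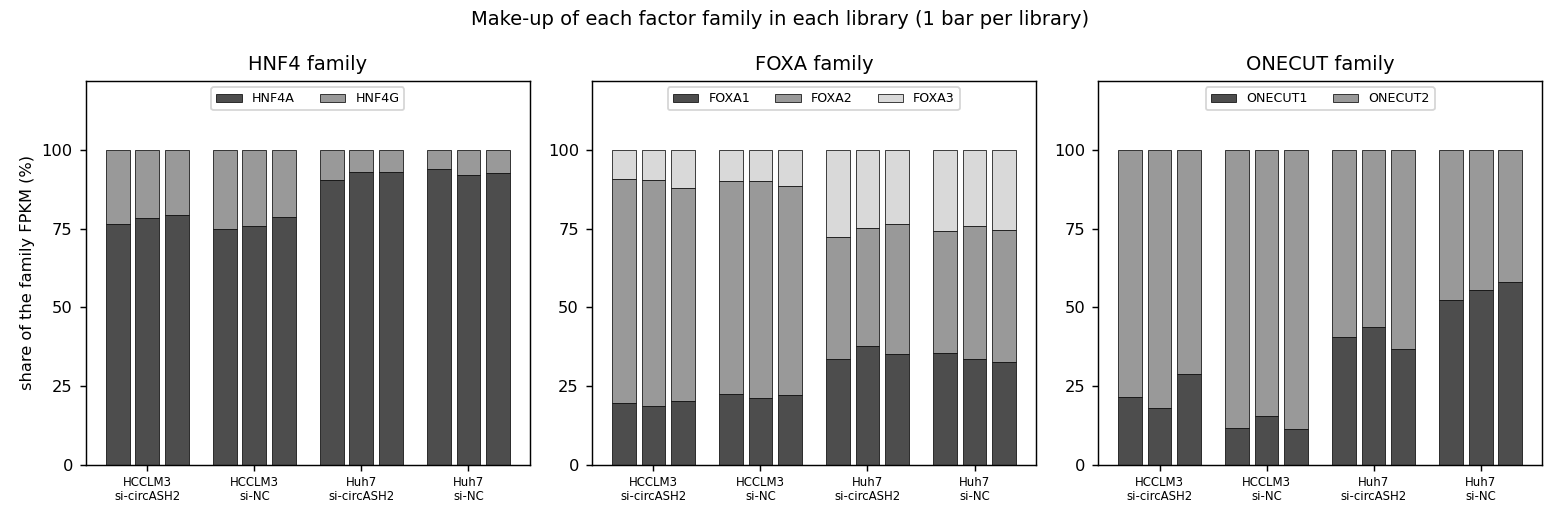
Share of the summed FPKM of the HNF4, FOXA and ONECUT families held by each paralog (vertical axis, %), 1 bar per library. The ONECUT1 share in Huh7 is 36.8% to 43.8% with si-circASH2 and 52.2% to 58.0% with si-NC, and FOXA2 holds the larger part of the FOXA sum in HCCLM3.

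The si-NC libraries of the lines were compared next. In HCCLM3 7 of the 8 factors were lower than in Huh7 and HNF4G was higher, where 85.2% of tested features were called in either direction, 43.6% lower and 41.6% higher. The median log2 fold change of the 8 was -1.77, against -0.04 over all tested features. ONECUT1 was lowest relative to Huh7, averaging 0.271 ± 0.0431 CPM in HCCLM3 and 11.9 ± 0.748 CPM in Huh7 (log2 fold change -5.44, 95% interval -5.86 to -5.01, edgeR adjusted p = 1.09e-17). FOXA3 averaged 6.18 ± 0.422 CPM in HCCLM3 and 36.5 ± 1.53 CPM in Huh7 (log2 fold change -2.56, edgeR adjusted p = 7.38e-16). ONECUT2 was at 12.9 ± 0.896 CPM in HCCLM3 and 74.4 ± 4.84 CPM in Huh7 (log2 fold change -2.53, edgeR adjusted p = 3.32e-19).

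The others were closer. Log2 fold changes were -1.93 for FOXA1, -1.62 for CEBPA, -1.35 for HNF4A and -0.58 for FOXA2, with edgeR adjusted p between 4.5e-20 and 2.21e-08. For all 7 lower factors the libraries of the lines did not overlap. HNF4G had a log2 fold change of 1.05 (95% interval 0.06 to 2.05, edgeR adjusted p = 0.0472), with no overlap between the lines (86.5% of tested features), and its call was lost in 11 of 23 alternatives, including without any 1 of the 6 Huh7 libraries. It was 0.59 without HCCLM3 si-NC replicate 1 (edgeR adjusted p = 0.192) and 0.58 without both libraries that stood apart (edgeR adjusted p = 0.000748), and it was 0.60 to 0.72 on the FPKM scale (limma adjusted p between 0.00014 and 0.000606). Between lines with si-circASH2 the same 7 factors were lower in HCCLM3 and HNF4G higher (85% of tested features called, 41.4% higher and 43.6% lower), and 7 of the 8 were past 2-fold in each of these comparisons (47.8% of tested features with si-NC and 47.4% with si-circASH2). In the si-circASH2 libraries the lines overlapped for none of the 8 (85.7% of tested features did not), with the gap in ONECUT1 at -3.16 and that in HNF4A at -1.07 on the log2 scale.

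Another 30 transcription factors of the hepatocyte network were listed, and 29 were tested. In HCCLM3 7 rose, 6 fell and 16 did not pass with si-circASH2 (median log2 fold change 0.05), against 15.1% of all tested features called higher and 15.5% lower. In Huh7 4 rose, 11 fell and 14 did not pass (median -0.11), against 16.3% of all tested features called higher and 15.1% lower. The test for the difference between the lines was passed by 8 with the larger value in HCCLM3 (9.6% of tested features) and 3 with the larger value in Huh7 (11.3%). In Huh7 HHEX, a homeobox factor of the liver bud, averaged 80.4 CPM with si-circASH2 and 111 CPM with si-NC (log2 fold change -0.46, edgeR adjusted p = 2.02e-09). The zinc finger endoderm factors GATA6 and GATA4 fell in Huh7, with log2 values of -0.67 and -0.52 (edgeR adjusted p = 2.35e-09 and 1.16e-08).

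In HCCLM3 XBP1, a factor of the secretory stress response, fell by 0.32 in log2 units (edgeR adjusted p = 3.33e-07), and it fell by 0.27 in Huh7 (edgeR adjusted p = 2.49e-06). CEBPB, the CEBP paralog of acute phase and regeneration, rose by 0.42 (edgeR adjusted p = 3.34e-06), and was at 0.09 in Huh7 (edgeR adjusted p = 0.323). ATF5, a stress response factor, rose by 0.35 in HCCLM3 (edgeR adjusted p = 1.75e-05) and by 0.35 in Huh7 (edgeR adjusted p = 6.68e-05). PROX1, a factor of hepatoblasts, rose in HCCLM3 by 0.27 (edgeR adjusted p = 0.00017) and fell in Huh7 by 0.35 (edgeR adjusted p = 1.35e-06). It differed between the lines by 0.63 (edgeR adjusted p = 3.08e-07), as did GATA6 by 0.74 (edgeR adjusted p = 3.26e-07) and HHEX by 0.50 (edgeR adjusted p = 4.03e-07). Among the 3 with the larger value in Huh7, the corepressor NR0B2 differed by -1.90 (edgeR adjusted p = 0.000366) and the xenobiotic receptor NR1I2 by -1.28 (edgeR adjusted p = 0.001).

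**Figure D5:**
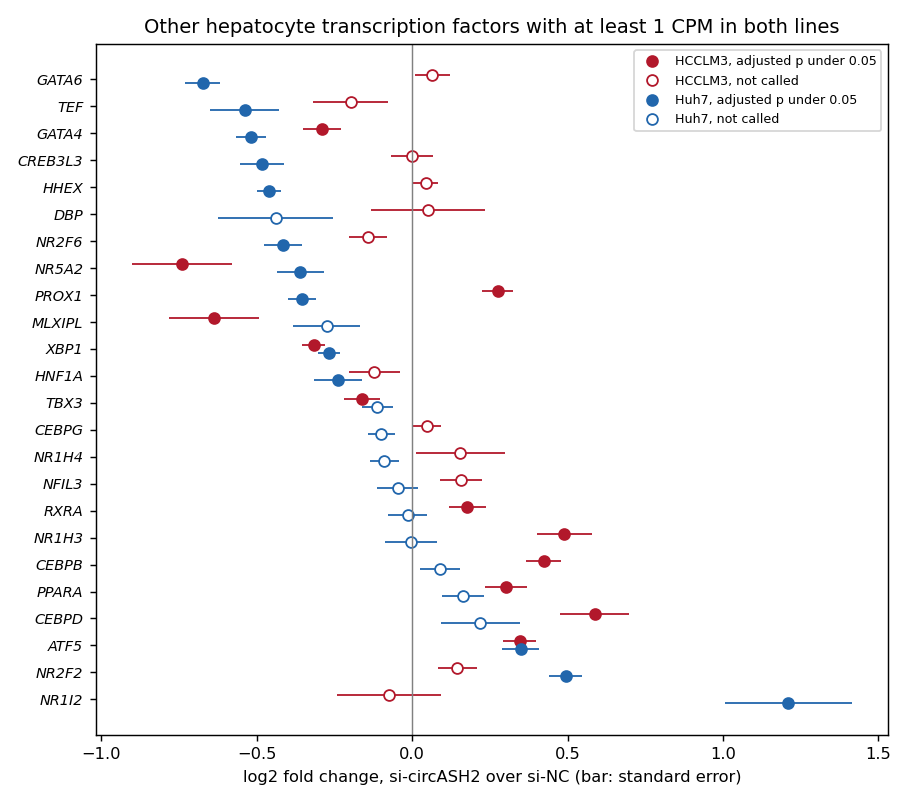
Log2 fold change with si-circASH2 over si-NC (horizontal axis, bar for the standard error) of the 24 other hepatocyte factors with at least 1 CPM in both lines, in HCCLM3 (red) and Huh7 (blue); filled points passed an adjusted p of 0.05. GATA6 and HHEX fell in Huh7, while their HCCLM3 values lie near 0.

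At baseline 21 of the 29 were lower in HCCLM3, 6 were higher and 2 did not pass, at a median of -0.95. The median over all features was -0.04, and 43.6% were lower and 41.6% higher. Of the 29, 1 was at 0 in HCCLM3 si-NC libraries and passed the filter on low counts through Huh7 alone. KLF15, HLF and NR1I3 were near 0 in both HCCLM3 groups and also passed through Huh7. They averaged 0.0233, 0.0654 and 0.0677 CPM in HCCLM3 si-NC libraries, against 17.6, 27.4 and 0.845 CPM in Huh7 si-NC libraries. For these factors the filter fixed the direction of the call. The bile acid receptor NR1H4 averaged 1.97 CPM in HCCLM3 si-NC libraries and 165 CPM in Huh7 si-NC libraries (log2 fold change -6.38, edgeR adjusted p = 3.18e-27). GATA4 and XBP1 were lower by log2 fold changes of -2.47 and -1.49 (edgeR adjusted p = 2.08e-22 and 1.82e-21).

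Textbook targets of the factors were counted next. The target lists share genes, such as TAT and ALB for FOXA factors and CEBPA, so their counts are not independent. For each list here and below, the shares called over all tested features are 30.6% in HCCLM3 and 31.4% in Huh7. Of 20 tested targets of HNF4A, 4 rose and 2 fell in HCCLM3, and 3 rose and 6 fell in Huh7 (median log2 fold change 0.18 in HCCLM3 over the 16 above a floor of 3 counts over a group of 3 libraries, and -0.09 in Huh7), so the share called in HCCLM3 was close to that over all features. APOA2, an apolipoprotein of high density lipoprotein, rose in both lines, to 4.77 CPM with si-circASH2 against 0.383 CPM with si-NC in HCCLM3 (log2 fold change 3.63, edgeR adjusted p = 2.31e-14), and to 2448 CPM with si-circASH2 against 1792 CPM with si-NC in Huh7 (log2 fold change 0.45, edgeR adjusted p = 4.21e-09). MTTP, which loads lipid onto lipoproteins, fell in both lines, with log2 fold changes of -0.49 in HCCLM3 (edgeR adjusted p = 1.48e-08) and -0.39 in Huh7 (edgeR adjusted p = 5.05e-08). APOA1, the main apolipoprotein of high density lipoprotein, fell in Huh7 by 0.41 (edgeR adjusted p = 1.53e-08).

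Of 12 tested FOXA targets 2 rose and none fell in HCCLM3, and 2 rose and 1 fell in Huh7 (medians 0.19 over the 9 above the floor, and -0.07). The fetal albumin homolog AFP rose in HCCLM3 to 4.88 CPM with si-circASH2 against 3.35 CPM with si-NC (log2 fold change 0.54, edgeR adjusted p = 2.12e-05), and fell to 8413 CPM with si-circASH2 against 9343 CPM with si-NC in Huh7 (-0.15, edgeR adjusted p = 0.00174). TAT, tyrosine aminotransferase, rose in Huh7 by 0.72 (edgeR adjusted p = 0.0004). VTN, vitronectin, was at -0.47 in HCCLM3 and missed the threshold (edgeR adjusted p = 0.0631).

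Among 9 tested ONECUT targets, which include HNF4A and FOXA2, 1 rose and none fell in HCCLM3, and 2 rose and 4 fell in Huh7 (medians -0.05 over the 8 above the floor, and -0.15). The HCCLM3 median is set by the values of HNF4A and FOXA2 themselves. SPP1, osteopontin, rose in Huh7 to 67.4 CPM with si-circASH2 against 28.7 CPM with si-NC (log2 fold change 1.23, edgeR adjusted p = 2.53e-15), and was at 732 CPM with si-circASH2 and 701 CPM with si-NC in HCCLM3 (0.06, edgeR adjusted p = 0.241).

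Of 13 tested CEBPA targets 4 rose and 1 fell in HCCLM3, and 2 rose and none fell in Huh7 (medians 0.20 over the 10 above the floor, and 0.09). HAMP, the iron hormone hepcidin, and TAT rose in Huh7 by 0.45 and 0.72 (edgeR adjusted p = 0.000154 and 0.0004). APOH, a plasma glycoprotein, rose in HCCLM3 by 0.72 (edgeR adjusted p = 6.14e-11), and UGT2B7, a glucuronidating enzyme, fell there by 0.54 (edgeR adjusted p = 2.22e-07). In Huh7 ALB was at -0.22 in log2 units and missed the threshold (edgeR adjusted p = 0.0521).

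At baseline 85.2% of all tested features were called, 43.6% lower and 41.6% higher in HCCLM3. For HNF4A 17 of 20 were lower and 2 higher, and for FOXA factors 11 of 12 and 1. For ONECUT factors it was 7 of 9 and 1, and for CEBPA 9 of 13 and 3. In that order 3, 2, 1 and 2 targets were at 0 in HCCLM3 si-NC libraries and passed the filter on low counts through Huh7 alone. That fixed their direction, others were near 0 there, and targets low in both lines were not tested. Medians with genes at 0 set to the floor of 3 counts were -5.85, -7.87, -1.35 and -4.83 for those lists, against -1.77 for the 8 factors themselves. The ONECUT median is the value of HNF4A, itself 1 of the 8, so it is no separate comparison with them.

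Cofactors and regulators of the 8 proteins were listed too, and 17 were tested. In HCCLM3 4 rose, 4 fell and 9 did not pass, and in Huh7 1 rose, 4 fell and 12 did not pass (medians 0.01 over the 16 above the floor, and -0.07). TLE1, a Groucho corepressor that binds FOXA proteins, rose by 0.24 in HCCLM3 (edgeR adjusted p = 2.45e-05) and fell by 0.28 in Huh7 (edgeR adjusted p = 4.44e-06). TRIB1, the pseudokinase that presents CEBPA for degradation, fell by 0.33 in HCCLM3 (edgeR adjusted p = 8.48e-07) and rose by 0.23 in Huh7 (edgeR adjusted p = 0.000317). RFWD2, the ubiquitin ligase COP1 that acts with TRIB1, fell by 0.28 in HCCLM3 (edgeR adjusted p = 4.65e-05) and by 0.19 in Huh7 (edgeR adjusted p = 0.0044). SIRT1, a deacetylase, fell in Huh7 by 0.35 (edgeR adjusted p = 0.00104). The difference between the lines, HCCLM3 minus Huh7, passed for TLE1 at 0.52 (edgeR adjusted p = 1.87e-07) and for TRIB1 at -0.56 (edgeR adjusted p = 3.26e-07).

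Biliary and progenitor markers, which mark the alternative fate of hepatoblasts, did not move in 1 direction. Of 12 tested 1 rose and none fell in HCCLM3, and 3 rose and 3 fell in Huh7 (medians 0.02 over the 9 above the floor, and 0.01 over the 11 above it). SOX9, a factor of the duct lineage, rose by 0.31 in HCCLM3 (edgeR adjusted p = 0.0184) and was lower in Huh7, at -0.15 in log2 units (edgeR adjusted p = 0.0201). The duct keratin KRT19 rose by 0.27 in Huh7 (edgeR adjusted p = 0.00167), and the Wnt pathway receptor LGR5 fell there by 0.68 (edgeR adjusted p = 3.21e-06). Of factors of pancreas, gut and lung 4 of 10 were tested, 1 fell in HCCLM3 and 3 fell in Huh7. Among these PDX1, the pancreatic homeobox factor, averaged 3.35 CPM with si-circASH2 and 7.33 CPM with si-NC in Huh7 (log2 fold change -1.13, edgeR adjusted p = 5.06e-05).

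The genes whose pattern was most like each factor were found by Pearson's r of log2 CPM over the 12 libraries, after the mean of each line was removed, among 12828 named features. These values are a description, since the libraries share 4 groups and their sequencing depth. ONECUT1 was closest to KIF2C (r = 0.988) and PTTG1 (r = 0.981), HNF4A to AUH (r = 0.982) and RFC5 (r = 0.977), and FOXA1 to FKBP7 (r = 0.988) and GC (r = 0.978). ONECUT2 was closest to SERBP1 (r = 0.965) and ANP32B (r = 0.949), CEBPA to CLASRP (r = 0.957) and UBE2J2 (r = 0.953), and FOXA3 to EPHA1 (r = 0.945) and VPS51 (r = 0.897). For FOXA2 they were GJB1, at 0 in HCCLM3, and B4GALNT4 (both r = 0.942), and for HNF4G APOC2 (r = 0.948) and PLA2G12B (r = 0.918). Among the factors themselves r was highest between CEBPA and FOXA3 (0.865), between HNF4A and ONECUT1 (0.829) and between HNF4A and ONECUT2 (0.826), and HNF4G reached at most 0.383, with FOXA2.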

How the data were processed

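RNA of 2 hepatocellular carcinoma lines, with si-circASH2 or si-NC, was sequenced in 12 libraries grouped by their labels. Per the labels' protocols, a SMARTer kit for mRNA was used. The deposited counts are whole-number counts per feature, per the file headers. The deposited FPKM values were scaled by the authors for length and depth, per the file headers. The builds hg38, GRCm38 and mm10 come from the submitters' processing notes, which name no role. Aligner, counter, annotation and strand: not given in the sources used here. All columns were used. The lowest counts are uncertain, since counts of 1 (1938 values) are rarer than counts of 2 (6826). At this depth 3 counts in 1 library are 0.0972 to 0.103 CPM.

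Counts were fitted with edgeR 4.0.16 in R 4.3.3 (filterByExpr with a minimum count of 10, TMM, robust quasi-likelihood fit over the 4 groups, 8 residual degrees of freedom), with Benjamini-Hochberg adjustment over 16946 features. Replicates of a group differed by a chi-square per degree of freedom of 3.89 to 8.53, so none were merged. Alternatives were other scalings, DESeq2 1.42.0, no filter, no assembled MSTRG features, only the libraries compared, a replicate block, each library left out, limma 3.58.1 on log2(FPKM + 0.1) or log2(FPKM + 1) and, chosen after the data were seen, leaving out both HCCLM3 libraries with high HNF4G counts.

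The 8 factors and all lists were chosen with earlier results of these data known. The text names all 8, and for each list up to 3 tested genes with the smallest adjusted p in each knockdown, with 3 each for the difference and the baseline among the other factors. Some genes that this rule covers are not reported here. APOH and RBP4 as markers, NR0B2 and the other factors whose effects differed between the lines, Huh7 values of CEBPB, PROX1 in each line, RFWD2 in Huh7 and SOX9 in Huh7 were added after their values were seen. The markers of other cell types named with their levels, and KLF15, HLF and NR1I3, were also added after their values were seen. Promoters are RefSeq windows and gene models are GENCODE 29.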

Additional observations from a re-analysis of the deposited data

Results flagged for a closer look

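The knockdown effect differed between the lines by the test of the difference itself (edgeR, HCCLM3 minus Huh7, log2 scale) for 3 of the 8 factors. The differences were 2.28 for ONECUT1, 0.60 for ONECUT2 and 0.28 for HNF4A. ONECUT1 had at most 18 counts in a HCCLM3 library, while in Huh7 it had 124 to 155 counts with si-circASH2 and 336 to 373 with si-NC. Of the 29 other hepatocyte factors tested, 11 passed the same test. With the larger value in HCCLM3 these were GATA6 (0.74), PROX1 (0.63), HHEX (0.50), NR1H3 (0.49), CREB3L3 (0.48), CEBPB (0.33), NR2F6 (0.27) and GATA4 (0.23), with edgeR adjusted p up to 0.0407. With the larger value in Huh7 they were NR0B2 (-1.90), NR1I2 (-1.28) and NR2F2 (-0.35), with edgeR adjusted p up to 0.00306. NR0B2 averaged 0.302 CPM with si-circASH2 and 0.883 CPM with si-NC in HCCLM3, and 9.69 CPM with si-circASH2 and 7.53 CPM with si-NC in Huh7. NR1I2 averaged 5.46 CPM with si-circASH2 and 5.74 CPM with si-NC in HCCLM3, and 2.85 CPM with si-circASH2 and 1.23 CPM with si-NC in Huh7. GATA4 fell in both lines, by 0.29 in HCCLM3 and by 0.52 in Huh7. Over all tested features 20.9% passed this test.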

How the results depend on the processing

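Of the 8 factors the number called in Huh7 was 4 to 7 over 23 alternatives, against 6. For the difference between the lines it was 2 to 4, against 3, and at baseline it was 7 to 8, against 8. In HCCLM3 it was 2, but 1 with no filter, with DESeq2, with only the libraries compared and with limma on log2(FPKM + 1). There it was 1 to 2 with each library left out, and 0 without both libraries with high HNF4G counts. The values that changed sign had not passed the test. For HNF4A in HCCLM3 they were 0.0136, 0.013 and 0.0136 on the FPKM scale. For HNF4G in HCCLM3 they were -0.12, -0.105 and -0.12 on the FPKM scale, -0.0128 with the replicate block and -0.0448 without both libraries. Leaving out HCCLM3 si-NC replicate 2 or 3 or si-circASH2 replicate 2 gave -0.159, -0.203 and -0.511, and the highest value with a library left out was 0.465. In the difference between the lines HNF4G lay between -0.297 (without HCCLM3 si-circASH2 replicate 2) and 0.666 with each library left out, FOXA3 between -0.0628 (without HCCLM3 si-circASH2 replicate 3) and 0.211, and FOXA1 was 0.00075 without both libraries. The cause of these changes was not tested.

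Deviations of libraries with the same replicate number correlated between -0.0476 and 0.0371, and those with different numbers between -0.077 and 0.063. In HCCLM3 all values for the same number (0.0114 to 0.0166) were above those for different numbers (at most 0.00102). Correlations this small cannot tell whether the numbers pair the libraries. With a replicate block 6, 2, 3 and 7 factors were called in Huh7, in HCCLM3, for the difference and at baseline. The call lost was that of HNF4G at baseline (1.31, edgeR adjusted p = 0.147), and the block changed no other call of the 8. Counts under about 10 per library, as for ONECUT1 in HCCLM3 with si-NC, limit the precision.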
